A study of Bos taurus with 18 samples.

Results

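The exosomal (EX) and non-exosomal (FC) fractions of the same plasma were compared in Japanese Black cattle at 20 months of age, to see which miRNAs took a larger share of the EX library and which took a larger share of the FC library. The whole study sequenced small RNA of 3 fattening steers, each sampled near 20, 25 and 30 months, in 18 libraries, and the 6 libraries at 20 months, 3 EX and 3 FC, are described here. No treatment was given. Each plasma sample gave 1 EX and 1 FC library, so that replicate 1, 2 and 3 are 3 animals and each EX library has a partner from the same tube. The fractions were parted by a spin column kit, so EX stands for the RNA that the kit assigned to vesicles. Protein markers of vesicles are not analysed here. Abundance is given as CPM, the counts of a miRNA per 1000000 counts of its library. A miRNA was kept where its CPM was > 5 in at least 3 of the 6 libraries, which held for 336 of the 1071 miRNAs listed (319 known and 17 candidates). The candidates, predicted from these reads, are written as candidate-miR with their deposited number.

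Exosomes are small vesicles that cells release when internal compartments fuse with the cell surface, and they can carry miRNAs from one cell to another. miRNAs outside vesicles are stable in plasma mainly where they are bound to Argonaute proteins or to lipoproteins. A mature miRNA represses mRNAs that pair with its seed, the bases 2 to 8, so miRNAs with the same seed are grouped as a family. Many plasma miRNAs come from blood cells, and others from liver and vessel wall.

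The sequences of the 11 miRNAs called differentially abundant (DE-miRNAs, defined further on) are shown first, with the seed in capitals, because those on the EX side include several that are short. They were copied 5′ to 3′ from the deposited table. The 7 higher in EX were the following.
candidate-miR-24: uCAGCUGCuggaaaaccu
candidate-miR-38: aUAAUGAAcaauaaaacu
candidate-miR-40: gUCCGGUUguucuucucu
bta-miR-11980: aGGCAACGggcuuggcggag
bta-miR-184: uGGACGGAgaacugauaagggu
bta-miR-342: uCUCACACagaaaucgcacccaucu
bta-miR-205: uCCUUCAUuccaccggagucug
The 4 higher in FC were the following.
bta-let-7i: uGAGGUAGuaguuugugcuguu
bta-miR-148a: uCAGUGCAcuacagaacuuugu
bta-miR-455-5p: uAUGUGCCuuuggacuacauc
bta-miR-1246: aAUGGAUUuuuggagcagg
Each of the 7 on the EX side had a seed that no other kept miRNA had. On the FC side, the seed of *bta-let-7i* is held by 9 kept miRNAs and that of *bta-miR-148a* by 3.

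The EX libraries held between 2026702 and 2778618 counts and the FC libraries between 7222665 and 12088735, so depth moved with the fraction, and its part in the results was tested only by drawing the FC counts down to the EX totals. A floor of 3 counts corresponded to 1.08 to 1.48 CPM in EX and to 0.248 to 0.415 CPM in FC. The floor covers counting error only, since reads copied from 1 molecule are not independent. No amount of RNA was measured along with the libraries, so more molecules of 1 miRNA and fewer of the others cannot be told apart. For 144 of the 336 miRNAs some counts are not whole, as reads that match several miRNAs were divided among them.

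EX replicate 3 stood apart in 3 rows of the table. *bta-miR-194* had 5472 and 5793 CPM in EX replicates 1 and 2, and 0 in EX replicate 3, against 6060 to 7746 CPM in FC. *bta-miR-181b* had 332, 250 and 4720 CPM in EX replicates 1 to 3, against 235 to 303 CPM in FC. *bta-miR-194b* had 0, 0 and 241 CPM in EX, and at most 0.161 CPM in FC. The 3 values of EX replicate 3 thus lay near the levels that these 3 miRNAs had in the other libraries at 20 months, but in each other's rows. The 6 EX libraries at 25 and 30 months had the same arrangement. Whether the rows were exchanged was not tested, and *bta-miR-181b* and *bta-miR-194* are read here without replicate 3: their log2 fold changes (EX minus FC) were then 0.21 ± 0.19 (SE) and −0.19 ± 0.14, against 1.25 ± 0.93 and −1.90 ± 2.21 with it, and neither passed the test. Over all kept miRNAs, the EX libraries also differed more from each other (root mean square difference of log2 CPM, 1.54 to 1.88) than the FC libraries did (0.641 to 0.935). The EX libraries were the less deep ones, and the part of depth in these distances was not tested.

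The lymphocyte miRNA *bta-miR-150* was the most abundant miRNA in EX. Its mean was 144314 ± 22235 CPM in EX (SD, n = 3) and 74071 ± 7646 CPM in FC. In FC, *bta-miR-16b*, a member of a family that restrains cell division, ranked first at 115904 ± 18926 CPM, and it had 113926 ± 28055 CPM in EX. The next in EX were *bta-miR-16b*, *bta-miR-21-5p* (77790 ± 10385 CPM), *bta-miR-122* (49722 ± 39610 CPM) and *bta-miR-342* (38937 ± 6060 CPM). The next in FC were *bta-miR-21-5p* (98977 ± 10870 CPM), *bta-miR-150*, *bta-miR-122* (67898 ± 46462 CPM) and *bta-miR-192* (54073 ± 6828 CPM). *bta-miR-142-5p*, *bta-miR-223* and *bta-miR-29a* were among the 10 most abundant in both fractions, *bta-miR-486* ranked there in EX, and *bta-miR-30e-5p* and *bta-miR-26b* ranked there in FC. The 10 most abundant held 56.2% to 63.7% of the counts in EX and 55.3% to 61.7% in FC.

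The fractions were compared with a paired test, edgeR's quasi-likelihood test on TMM-normalized counts with the plasma sample as a block, and the false discovery rate (FDR) by the method of Benjamini and Hochberg. A DE-miRNA had an FDR under 0.05 and a |log2 fold change| > 1. Of the 336 miRNAs, 34 (10.1%) passed the FDR alone, 11 higher in EX (3.27%) and 23 higher in FC (6.85%). The balance of the sides depended on the method: they were 36 and 36 with DESeq2, 20 and 19 with the spread taken from 12 libraries, and 12 and 13 with the likelihood ratio test of edgeR. Each of the 34 differed the same way in all 3 plasma samples, which held for 71 miRNAs on the EX side (21.1%) and 101 on the FC side (30.1%) in all. The 11 DE-miRNAs (3.27%) were 7 higher in EX (2.08%) and 4 higher in FC (1.19%), and 2 of the 7 were above 5 CPM in no FC library. The split of the DE-miRNAs moved with the scaling: it was 6 and 0 with the size factors of DESeq2, and 9 and 2 with library totals alone. The number of calls moved with the method as well. It was 1 without the block, 19 with DESeq2, 2 without replicate 2 and 0 without replicate 3 (edgeR, with 48 at an unadjusted p under 0.05, and 2 plasma samples left), while the sign of all 11 was kept under each of these settings. At an unadjusted p under 0.05 there were 97 (28.9%). The median log2 fold change of all 336 was −0.12.

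**Figure D1:**
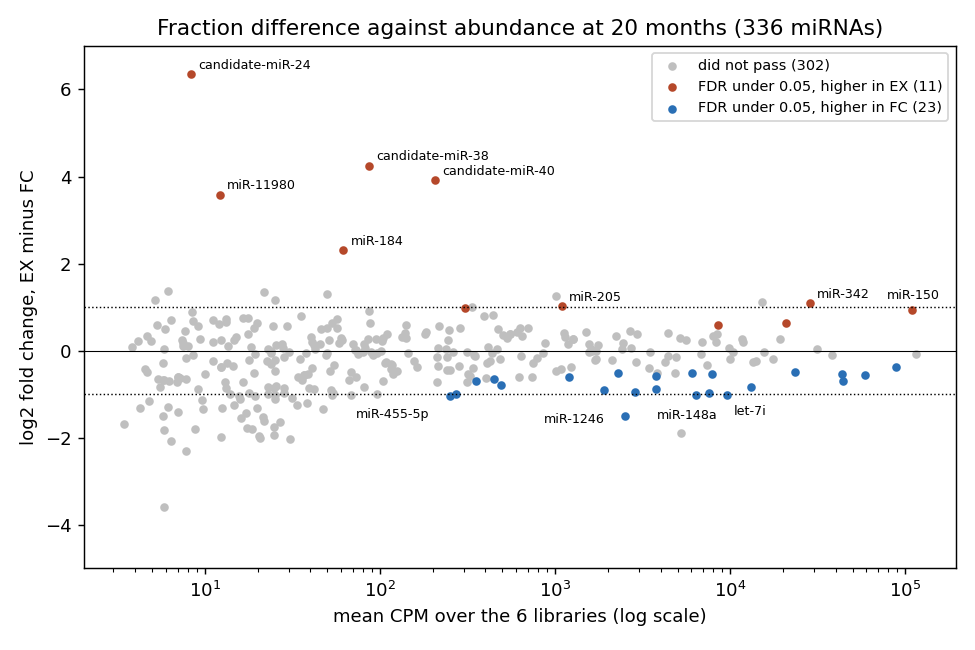
Log2 fold change between fractions (EX minus FC, vertical axis) against the mean CPM over the 6 libraries (horizontal axis, log scale) for 336 miRNAs at 20 months. Grey points did not pass, red points (11) were higher in EX and blue points (23) higher in FC at FDR under 0.05, and dotted lines mark 1 log2 unit. Among the miRNAs that passed, the 5 with differences above 2 log2 units are of low or middle abundance. The others that passed, apart from *bta-miR-1246*, lie within 1.09 log2 units of 0.

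Of the miRNAs with counts in all 6 libraries, *candidate-miR-38* and *candidate-miR-40* had the largest fitted differences. *candidate-miR-40* had 381, 313 and 462 CPM in the EX libraries of replicates 1 to 3, and 17.5, 36.7 and 23.6 CPM in their FC partners. Every EX library lay above every FC library, by a fitted 15.1-fold (log2 fold change 3.92 ± 0.34, SE; FDR 0.00661, edgeR). This call was kept in 16 of 17 alternative settings, and it was lost without replicate 3.

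*candidate-miR-38* had 166, 100 and 224 CPM in EX against 4.88, 17.6 and 6.32 CPM in FC. The groups did not overlap, and the fitted difference was 19-fold (log2 fold change 4.25 ± 0.67; FDR 0.0217). Over the 16 alternatives in which it was tested, the log2 fold change ranged from 3.13 to 5.14, and 14 kept the call. Plasma sample 2 had the lowest EX value and the highest FC value of both candidates. Both sequences have 18 bases, and their GC content is 50% for *candidate-miR-40* and 16.7% for *candidate-miR-38*.

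*candidate-miR-24*, also of 18 bases, was scarce. It had 14, 55 and 45 counts in EX (6.82, 19.8 and 22.2 CPM), and 0, 0 and 8 counts in the deeper FC libraries (0, 0 and 0.857 CPM). The FDR was 0.0406, and the log2 fold change was 6.35 ± 1.30, but with so few FC counts its size depended on the setting, from 1.30 to 9.21. Of the 16 alternatives in which it was tested, 7 kept the call. It was kept for the test through the EX libraries alone, since no FC library reached 5 CPM, so a difference between the groups was built into its selection.

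*bta-miR-11980*, a cattle miRNA of 20 bases, was low but even in EX. It had 22.9, 20.5 and 23.2 CPM there, and 2.48, 3.05 and 0.643 CPM in FC (log2 fold change 3.58 ± 0.79; FDR 0.0491). The FC values rest on 30, 22 and 6 counts. The call was kept in 7 of the 16 alternatives in which it was tested, and the log2 fold change ranged from 1.42 to 4.13. Like *candidate-miR-24*, it was above 5 CPM in the EX libraries alone, which were what kept it for the test.

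*bta-miR-184*, which is known from the cornea and other epithelia, had 115, 120 and 72.5 CPM in EX against 32.3, 16.6 and 14.2 CPM in FC. The lowest EX value was thus above the highest FC value (log2 fold change 2.31 ± 0.32; FDR 0.0172). *bta-miR-205*, an epithelial miRNA that represses the ZEB factors, had 1565, 1636 and 1189 CPM in EX and 726, 838 and 571 CPM in FC. Its fitted difference was 2.02-fold (log2 fold change 1.01 ± 0.12; FDR 0.0113). The epithelial list, *bta-miR-200a*, *bta-miR-200b*, *bta-miR-200c*, *bta-miR-141*, *bta-miR-429* and *bta-miR-375*, holds neither of these and had 0 of 6 members past the FDR, where 10.1% of all miRNAs passed, with log2 fold changes between −0.40 and 0.31.

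**Figure D2:**
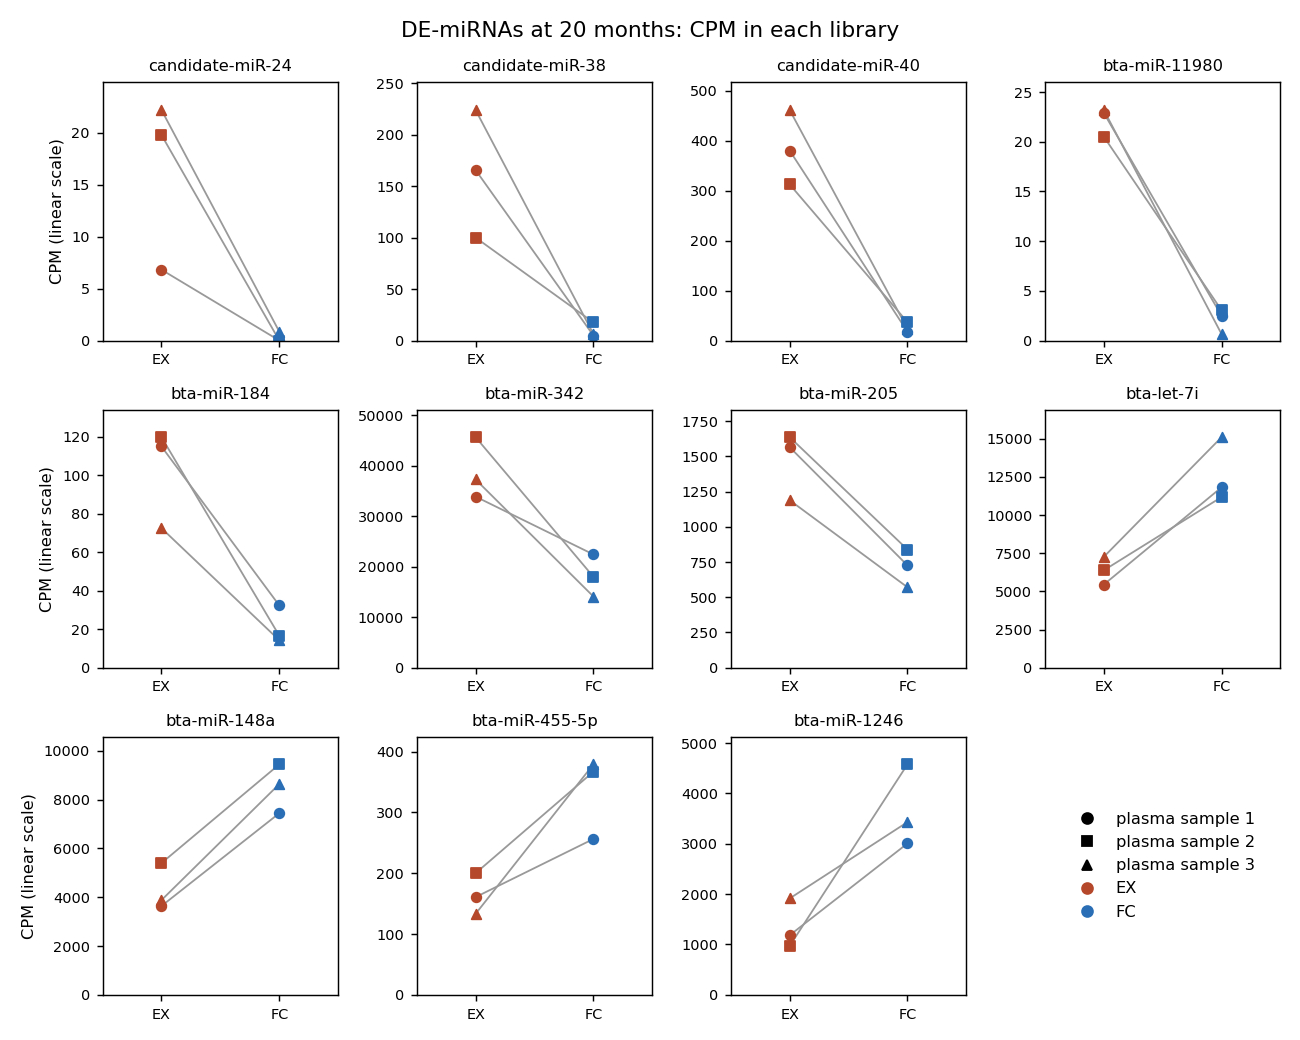
CPM (vertical axes, linear, starting at 0) of the 11 DE-miRNAs in the EX and FC libraries at 20 months. Grey lines join the libraries of the same plasma sample, and marker shapes stand for plasma samples 1 to 3. All lines of the first 7 panels fall from EX to FC and all lines of the last 4 rise, and in none of the 11 panels do the values of EX and FC overlap.

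Among the 10 most abundant miRNAs of EX, the pair of lymphocyte miRNAs *bta-miR-150* and *bta-miR-342* had the largest log2 fold changes. *bta-miR-150*, which represses MYB in maturing lymphocytes, had 157118, 157185 and 118639 CPM in EX against 78022, 78932 and 65258 CPM in FC. It had the smallest FDR of all (0.00319), but at 1.9-fold (log2 fold change 0.93 ± 0.06) it stayed under the threshold of size. *bta-miR-342*, encoded in an intron of EVL, had 33880, 45654 and 37278 CPM in EX and 22426, 18004 and 14097 CPM in FC (log2 fold change 1.09 ± 0.18; FDR 0.0221).

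The other members of the lymphocyte list did not pass. *bta-miR-155*, an activation-induced miRNA, had a log2 fold change of −0.22 ± 0.12, *bta-miR-146a*, a brake on innate signalling, of −0.43 ± 0.13, and *bta-miR-181a*, which tunes T cell receptor signalling, of −0.02 ± 0.11. The sixth member is *bta-miR-181b*, whose rows are in doubt. So 2 of 6 members passed, both higher in EX, where 3.27% of all miRNAs did. In sum, the list held 19.6%, 20.8% and 16.4% of the EX counts and 10.5%, 10.3% and 8.39% of the FC counts, where the row of *bta-miR-181b* gave 4720 CPM of the EX replicate 3 share. The EX share was higher in 3 of 3 pairs, by 9.20 ± 1.25 percentage points (SD). An exact sign-flip test over 3 pairs cannot go below p = 0.25 (two-sided), which is the value here.

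The 3 red cell miRNAs had higher values in EX than in FC within each plasma sample, and both fractions had their highest values in plasma sample 3. *bta-miR-486*, encoded within ANK1, had 12101, 22878 and 40309 CPM in EX and 6974, 13748 and 28719 CPM in FC. The ranges of EX and FC overlap, and each EX value was above its partner (log2 fold change 0.64 ± 0.09; FDR 0.0172). *bta-miR-451*, which is processed by Argonaute 2 without Dicer, had 12934, 14239 and 34462 CPM in the EX libraries and, in the same order, 3652, 10010 and 16242 CPM in FC, and missed the threshold (log2 fold change 1.11 ± 0.25; FDR 0.0559).

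*bta-miR-144*, transcribed together with *bta-miR-451*, had a log2 fold change of 0.80 ± 0.36. Of the 3 list members 1 passed, where 3.27% of all miRNAs were called higher in EX, and the median was 0.80, against −0.12 for all miRNAs. The list took 2.54%, 3.75% and 7.55% of the EX counts and 1.07%, 2.41% and 4.55% of the FC counts. The ratio of *bta-miR-451* to *bta-miR-23a*, which is used as a sign of haemolysis in plasma, was 0.744, 1.50 and 2.93 in the EX libraries and 0.289, 1.203 and 1.62 in their FC partners. The part of red cell RNA in the other differences was not tested.

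**Figure D3:**
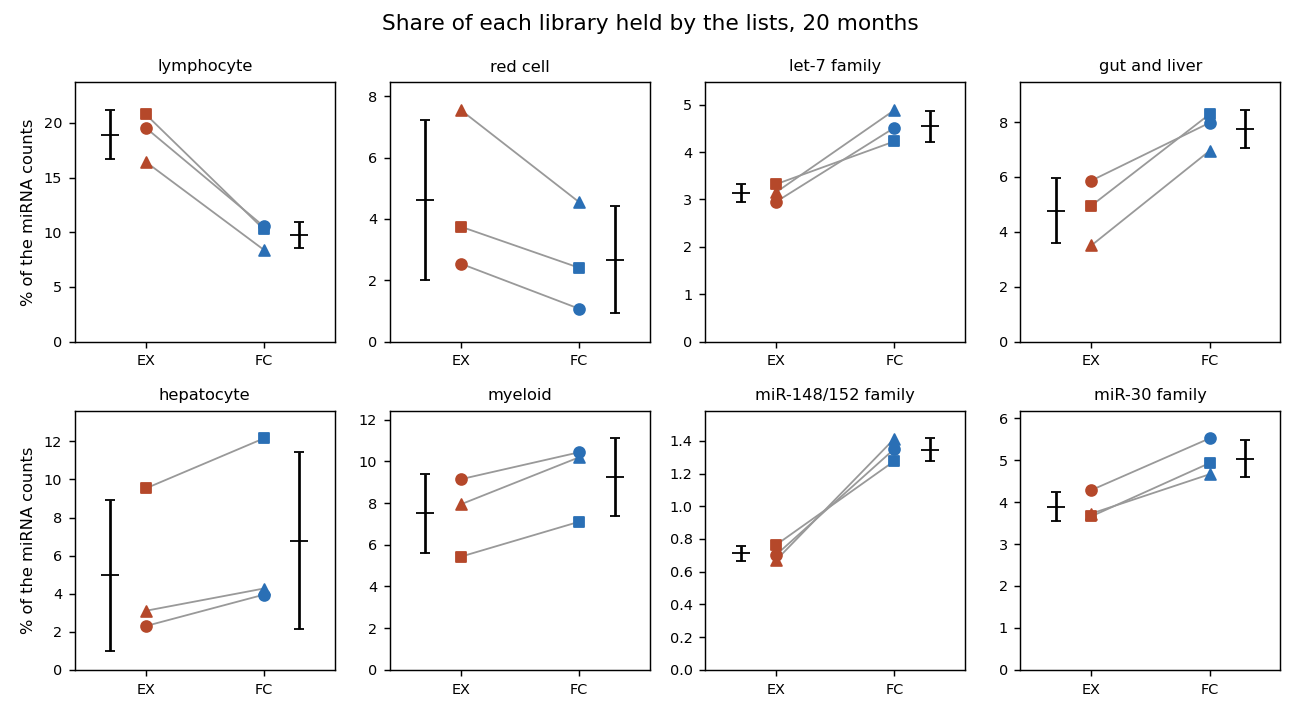
Percentage of the miRNA counts of each library (vertical axes, starting at 0) that the members of 8 lists held in EX and FC at 20 months. Lines join libraries of the same plasma sample, shapes stand for plasma samples 1 to 3 as in the plot of the DE-miRNAs, and black bars give the mean ± SD (n = 3). The gut and liver share includes the row of *bta-miR-194*, which is 0 in EX replicate 3. The lymphocyte and red cell shares are higher in EX in all 3 pairs, and the other 6 shares are higher in FC in all 3 pairs.

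Also higher in EX were *bta-miR-101*, known to repress EZH2, and *bta-miR-106b*, encoded in an intron of MCM7. *bta-miR-101* had 8660, 10033 and 12387 CPM in EX against 5570, 6847 and 7734 CPM in FC (log2 fold change 0.59 ± 0.09; FDR 0.0217). *bta-miR-106b* had 502, 313 and 426 CPM in EX against 201, 200 and 200 CPM in FC, so that the FC libraries hardly differed (log2 fold change 0.99 ± 0.19; FDR 0.0314). Its seed AAAGUGC is shared by *bta-miR-17-5p*, *bta-miR-20a*, *bta-miR-20b*, *bta-miR-93* and *bta-miR-106a*, none of which passed, and the median of the 6 was 0.38.

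On the FC side, all 9 let-7 miRNAs, which share the seed GAGGUAG and repress RAS and HMGA2 genes, had negative log2 fold changes under each of 3 scalings (TMM, DESeq2 size factors, library totals), and 5 of 9 passed, where 6.85% of all miRNAs did. The calls were less stable than the signs: of 17 alternatives, *bta-miR-98* lost its call in 9, *bta-let-7c* in 8, *bta-let-7g* in 7, and *bta-let-7i* and *bta-let-7f* in 3 each. The reads of the family are partly divided among its members, so that single values are less certain than the sum. The sequences differ by few bases outside the seed, as these 5 show (seed in capitals).
bta-let-7i: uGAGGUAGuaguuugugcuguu
bta-let-7f: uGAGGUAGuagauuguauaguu
bta-let-7g: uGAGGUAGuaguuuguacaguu
bta-let-7c: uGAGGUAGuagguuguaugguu
bta-miR-98: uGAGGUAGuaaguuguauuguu

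*bta-let-7i* had 5440, 6377 and 7256 CPM in EX and 11817, 11177 and 15100 CPM in FC (log2 fold change −1.02 ± 0.10; FDR 0.00661). *bta-let-7f* had 2606, 2812 and 2636 CPM in EX and 4332, 4666 and 5539 CPM in FC (log2 fold change −0.87 ± 0.12; FDR 0.0158). The EX and FC values of both did not overlap.

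*bta-let-7c* (−0.61 ± 0.12; FDR 0.0314), *bta-let-7g* (−0.54 ± 0.09; FDR 0.0227) and *bta-miR-98* (−0.65 ± 0.13; FDR 0.0348) passed at a smaller log2 fold change. *bta-let-7a-5p*, *bta-let-7b*, *bta-let-7d* and *bta-let-7e* did not pass, with log2 fold changes between −0.37 and −0.10. The median of the 9 was −0.54. The family held 2.95%, 3.32% and 3.15% of the EX counts and 4.51%, 4.23% and 4.89% of the FC counts.

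The family of *bta-miR-148a*, *bta-miR-148b* and *bta-miR-152* is known to repress DNMT1. *bta-miR-148a*, which is abundant in liver and in milk, had 3643, 5401 and 3884 CPM in EX and 7446, 9450 and 8642 CPM in FC (log2 fold change −1.03 ± 0.10; FDR 0.00702). *bta-miR-148b* had 2332, 1436 and 2111 CPM in EX and 4579, 2384 and 4381 CPM in FC (log2 fold change −0.95 ± 0.12; FDR 0.0129). Plasma sample 2 had the highest *bta-miR-148a* and the lowest *bta-miR-148b* in both fractions. *bta-miR-152* had −0.47 ± 0.13 and did not pass, so 2 of the 3 kept members did, where 6.85% of all miRNAs were called higher in FC.

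*bta-miR-192* and *bta-miR-215*, p53-responsive miRNAs of gut and liver, share the seed UGACCUA. *bta-miR-192* had 40163, 36241 and 26234 CPM in EX and 55537, 60050 and 46632 CPM in FC (log2 fold change −0.71 ± 0.09; FDR 0.0158). *bta-miR-215* had 13057, 7524 and 8583 CPM in EX and 18164, 15090 and 16728 CPM in FC (log2 fold change −0.84 ± 0.13; FDR 0.0217). The sequences of the pair differ at the 5′ base and towards the 3′ end.
bta-miR-192: cUGACCUAugaauugacagccag
bta-miR-215: aUGACCUAugaauugacagaca
*bta-miR-122*, the main miRNA of hepatocytes, was much higher in plasma sample 2 than in the others: 22939, 95221 and 31004 CPM in EX and 39474, 121516 and 42706 CPM in FC. Within each pair FC was the higher one (log2 fold change −0.56 ± 0.10; FDR 0.0256), and the call was lost in 8 of 17 alternatives. *bta-miR-885*, the other hepatocyte marker, had 0.04 ± 0.48.

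All 3 myeloid markers had negative log2 fold changes under each of the 3 scalings, and 2 of 3 passed, where 6.85% of all miRNAs passed on the FC side. *bta-miR-223*, a granulocyte miRNA that is also used as a platelet marker, had 50282, 18489 and 40876 CPM in EX and 62126, 28014 and 62526 CPM in FC (log2 fold change −0.54 ± 0.09; FDR 0.0240). *bta-miR-142-3p* had −0.90 ± 0.19 (FDR 0.0413), while its partner from the other arm, *bta-miR-142-5p*, had −0.10 ± 0.09 and did not pass. Of the other platelet markers, none passed: *bta-miR-191* had 0.32 ± 0.15, and the endothelial *bta-miR-126-3p* and *bta-miR-126-5p* had 0.28 ± 0.17 and −0.51 ± 0.12.

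*bta-miR-143*, a smooth muscle miRNA, had 4950, 5335 and 5096 CPM in EX and 9455, 10318 and 9962 CPM in FC. The EX and FC values did not overlap (log2 fold change −0.98 ± 0.09; FDR 0.00661). *bta-miR-145*, which is transcribed with *bta-miR-143*, lay on the other side, with 706, 272 and 400 CPM in EX and 262, 205 and 169 CPM in FC. It did not pass (log2 fold change 1.00 ± 0.24; FDR 0.0607).

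**Figure D4:**
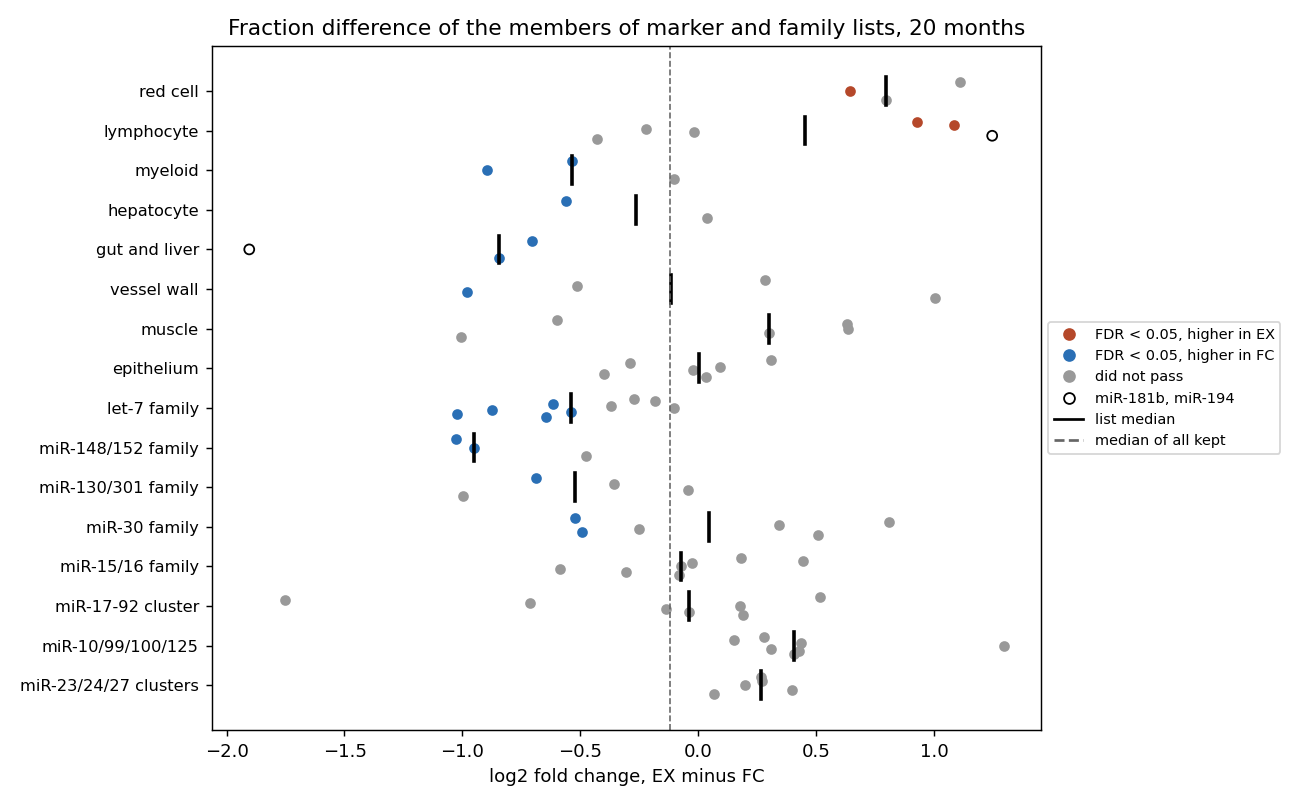
Log2 fold change (EX minus FC, horizontal axis) of each kept member of 16 lists of marker miRNAs and families (rows) at 20 months. Red and blue points passed at FDR under 0.05, grey points did not, open points are the 2 miRNAs whose rows are in doubt (*bta-miR-181b* in the lymphocyte list, *bta-miR-194* in the gut and liver list), short bars are list medians and the dashed line is the median of all 336 (−0.12). The 9 let-7 points and the 3 points of the row under them lie left of 0 and the points of the bottom rows, 7 and 5, lie right of 0.

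*bta-miR-1246*, whose sequence in mammals resembles a part of the U2 small nuclear RNA, showed the largest difference among the miRNAs called higher in FC. It had 1183, 971 and 1914 CPM in EX and 3006, 4577 and 3430 CPM in FC, a fitted 2.83-fold (log2 fold change −1.50 ± 0.29; FDR 0.0323). *bta-miR-455-5p*, encoded in a collagen gene and studied in cartilage, had 161, 200 and 133 CPM in EX and 256, 367 and 379 CPM in FC (log2 fold change −1.05 ± 0.20; FDR 0.0323). The groups did not overlap for either. The call was kept in 12 and 11 of 17 alternatives.

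The remaining miRNAs that passed on the FC side differed by less than 1 log2 unit. They were *bta-miR-21-5p* (−0.38), *bta-miR-30e-5p* (−0.49), *bta-miR-30a-5p* (−0.52), *bta-miR-199a-3p* (−0.52), *bta-miR-186* (−0.58), *bta-miR-130a* (−0.69), *bta-miR-296-3p* (−0.79) and *bta-miR-6119-5p* (−0.99). Of the 6 members of the miR-30 family 2 thus passed, where 6.85% of all miRNAs did on the FC side, and the other 4 did not pass and lay on both sides, from −0.25 for *bta-miR-30d* to 0.81 for *bta-miR-30b-5p*. Of the 4 members of the miR-130 and miR-301 families, *bta-miR-130a* alone passed (6.85% of all miRNAs were called higher in FC), and the lowest value was −0.999 ± 0.642 for *bta-miR-301b*.

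Other families showed no call, where 10.1% of all miRNAs passed. The 7 members of the miR-10, miR-99, miR-100 and miR-125 families all had positive log2 fold changes under each of the 3 scalings, with a median of 0.41, and the highest was 1.29 ± 0.30 for *bta-miR-99b* (FDR 0.0607). The 5 kept members of the miR-23, miR-24 and miR-27 clusters were likewise all positive (median 0.27), with 0 past the FDR. No member passed in the miR-15/16 family (7 kept, median −0.07), the miR-17-92 cluster (7, median −0.04), the miR-29 family (4, median 0.10), the miR-26 family (2, median −0.35), the pair of miR-103 and miR-107 (2, median −0.14), the pair of miR-221 and miR-222 (2, median 0.01), the miR-374 family (2, median −0.15), the miR-378 family (3, median −0.02), the miR-320 family (1, 0.34) or the miR-181 family (4, among them *bta-miR-181b*, whose rows are in doubt, so that no median is given).

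The 4 miRNAs that are known to travel with proteins in human plasma showed 1 call, higher in FC (6.85% of all miRNAs). *bta-miR-16a* had −0.03 ± 0.08, *bta-miR-16b* −0.07 ± 0.08 and *bta-miR-92a* 0.19 ± 0.11, and the fourth is *bta-miR-122*, given above. Together they took 13.7%, 23.1% and 20.7% of the EX counts, against 16.95%, 25.1% and 21.1% of the FC counts.

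The muscle markers *bta-miR-1*, *bta-miR-133a*, *bta-miR-206*, *bta-miR-208b* and *bta-miR-499* were low (at most 220 CPM in an EX library and 153 CPM in an FC library), and none of the 5 passed (10.1% of all did). Of the imprinted DLK1-DIO3 cluster, 17 of 59 listed miRNAs were kept and 0 passed, where 10.1% of all miRNAs did (median −0.43, from −1.64 for *bta-miR-369-3p* to 0.73 for *bta-miR-487b*). Of the cattle families miR-2284 and miR-2285, 25 of 148 were kept and 0 passed, against the same 10.1% (median −0.25, from −1.97 for *bta-miR-2285k* to 1.15 for *bta-miR-2285bz*). Of the 41 candidates, 17 were kept. The 3 described above passed, all higher in EX (3.27% of all miRNAs). Of these, *candidate-miR-24* was kept through the EX libraries alone. The 3 calls are thus a description and no support for a shared side of the candidates. The candidates that did not pass lay between −1.94 for *candidate-miR-11* and 0.65 for *candidate-miR-3*.

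Of the 11 miRNAs that passed in EX, 4 (36.4%) had 20 bases or fewer, as had 1 of 23 (4.35%) on the FC side and 30 of 336 (8.93%) among all kept. As 2 of these 4, *candidate-miR-24* and *bta-miR-11980*, were kept through the EX libraries alone, the shares are a description and no support for a difference in length. Short miRNAs lay on both sides: the 12 kept miRNAs of 17 to 19 bases ranged from *candidate-miR-24* at 6.35 to *bta-miR-1246* at −1.50, with a median of 0.52, and the 18 of 20 bases had a median of −0.19. The median GC content was 50% for the 11, 40.9% for the 23 and 45.8% for all. Weighted by counts, GC content was 45.2%, 45.4% and 45.2% in the EX libraries and 44.3%, 44.1% and 44.2% in the FC libraries, higher in EX in 3 of 3 pairs (exact sign-flip p = 0.25). The mean length weighted by counts was also higher in EX in 3 of 3 pairs, by 0.0711 bases (exact sign-flip p = 0.25).

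Short motifs that have been tied to the loading of exosomes were searched in the mature sequences (GGAG and CCCU for hnRNPA2B1, GGCU for SYNCRIP, on the miRNA strand alone). GGAG occurred in 3 of the 11 miRNAs higher in EX (27.3%), in 3 of the 23 higher in FC (13.04%) and in 31 of all 336 (9.23%). As 1 of the 3 in EX, *bta-miR-11980*, was kept through the EX libraries alone, these shares are a description and no support for a difference in motifs. The sequences with GGAG are shown with the motifs in capitals, first the 3 higher in EX and then the 3 higher in FC. The run of capitals in *bta-miR-296-3p* is GGAG overlapping GGCU.
bta-miR-205: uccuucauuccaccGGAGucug
bta-miR-184: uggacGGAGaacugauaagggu
bta-miR-11980: aggcaacgGGCUuggcGGAG
bta-miR-122: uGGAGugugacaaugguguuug
bta-miR-1246: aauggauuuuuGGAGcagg
bta-miR-296-3p: gaggguugggcGGAGGCUuucc
CCCU occurred in *bta-miR-150* alone among the 34, and in 10.7% of all kept. GGCU occurred in 1 of the 11, again *bta-miR-11980*, in 2 of the 23 and in 8.93% of all. Over all kept miRNAs the median log2 fold change was −0.02 with GGAG and −0.15 without, 0.15 with CCCU and −0.19 without, and −0.24 with GGCU and −0.10 without. These matches describe letters only.

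More miRNAs were detected in FC than in EX. A count was present for 434, 446 and 416 miRNAs in the EX libraries and for 694, 606 and 667 in the FC libraries. In counts rounded to whole numbers, 422, 436 and 402 miRNAs had a count in EX and 683, 593 and 654 in FC, a mean gap of 223. When these FC counts were drawn down to the EX total of the same plasma, 585, 558 and 569 miRNAs had a count, and the mean gap was 151. Over the 3 libraries of each fraction, 229 miRNAs had counts in FC alone and 3 in EX alone. Among the 336, 27 (8.04%) had all EX libraries above all FC libraries, 10 of them with an FDR under 0.05, and 46 (13.7%) had all FC libraries above all EX libraries, 16 of them with an FDR under 0.05. The miRNAs next to the threshold of 5 CPM were *bta-miR-2285bn*, just inside at 5.04 CPM (the highest level it passed in 3 libraries), and *candidate-miR-25*, just outside at 4.98 CPM.

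The same fractions at 25 and 30 months came from the same steers, in other libraries. At 25 months, all 11 miRNAs that were higher in EX at 20 months had a positive log2 fold change, where 36.9% of all 336 did, and 8 of them passed the FDR, where 12.2% of all did. Of the 23 higher in FC, 22 had a negative log2 fold change (63.1% of all did), and 12 passed. *candidate-miR-40* had 3.98 ± 0.27 (FDR 0.00132), *candidate-miR-38* 4.53 ± 0.30 (FDR 0.00132) and *bta-miR-184* 4.18 ± 0.53 (FDR 0.00823). *bta-miR-150* had 0.68 ± 0.04, *bta-miR-342* 0.49 ± 0.06, *bta-miR-143* −0.60 ± 0.06 and *bta-miR-148b* −0.89 ± 0.10, all past the FDR. *bta-let-7f* (−0.14 ± 0.08) and *bta-let-7c* (0.13 ± 0.13) did not pass.

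At 30 months, 8 of the 11 were positive, where 28.9% of all were, and 18 of the 23 were negative, where 71.1% of all were. Of them, 3 and 10 passed the FDR, where 6.85% of all did. Both abundant candidates and the gut and liver miRNAs stayed on their side: *candidate-miR-40* had 2.84 ± 0.15, *candidate-miR-38* 2.75 ± 0.23, *bta-miR-192* −0.78 ± 0.10 and *bta-miR-215* −1.05 ± 0.09. The lymphocyte pair did not pass, with −0.08 ± 0.21 for *bta-miR-150* and −0.12 ± 0.23 for *bta-miR-342*. Their levels had dropped in both fractions by then, to means of 13217 (EX) and 11855 (FC) CPM for *bta-miR-150*. *bta-miR-184* was at 0 in all EX libraries at that age.

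The age difference of the fraction difference itself was tested in 1 model per pair of ages, with the plasma sample as a block. The steers, the same at each age, were not paired across ages in these models. No miRNA passed at an FDR under 0.05 by edgeR between 20 and 25 months (0.0%, with 32, or 9.52%, at an unadjusted p under 0.05, and 3 by DESeq2 after adjustment) or between 20 and 30 months (0.0%, with 87, or 25.9%, at an unadjusted p under 0.05, and 52 by DESeq2 after adjustment). Across the 336 miRNAs, the log2 fold changes at 20 months correlated with those at 25 months at r = 0.41 and with those at 30 months at r = 0.29, as a description over miRNAs that share libraries and steers.

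**Figure D5:**
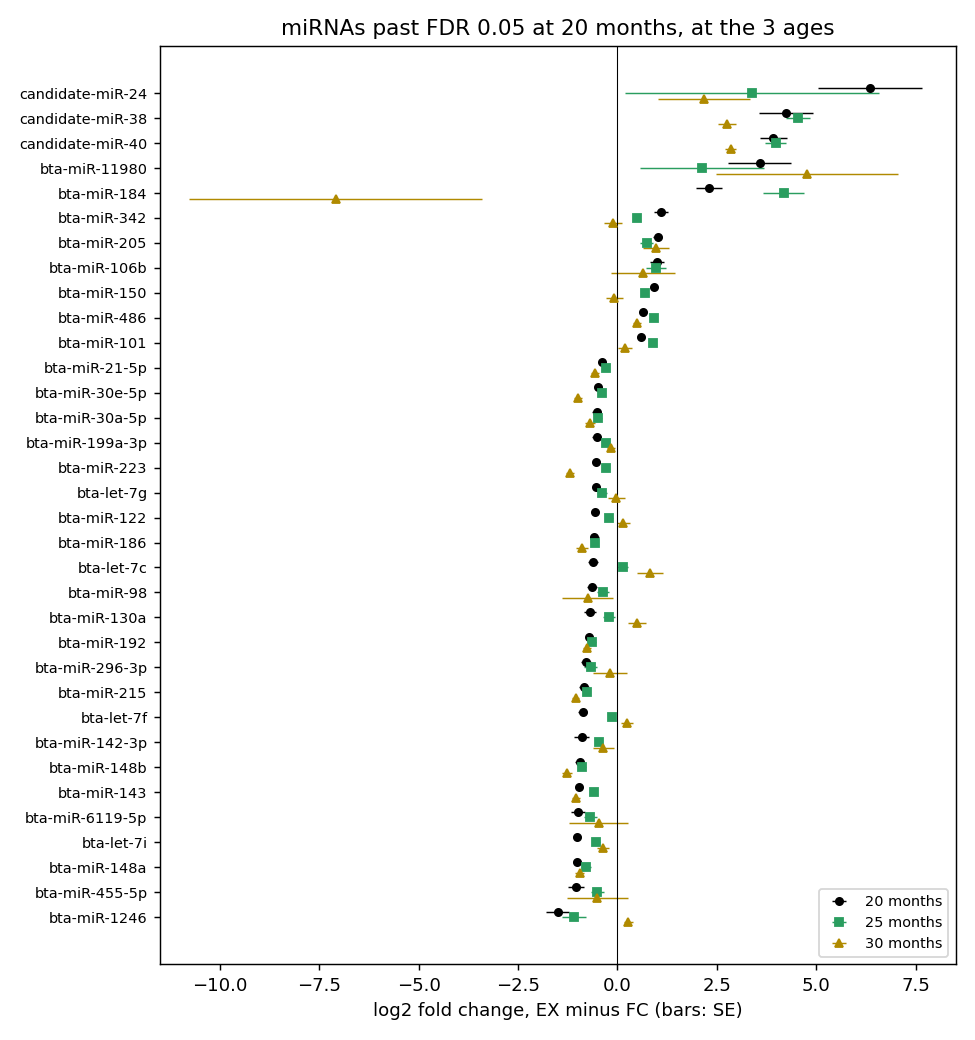
Log2 fold change between fractions (EX minus FC, horizontal axis, bars are SE) at 20 (black circles), 25 (green squares) and 30 months (ochre triangles) for the 34 miRNAs that passed at 20 months, ordered by the value at 20 months. The 11 top rows have green squares right of 0, and all lower rows but that of *bta-let-7c* have them left of 0. The long bar of *bta-miR-184* at 30 months belongs to a miRNA with 0 counts in EX.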

How the data were processed

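The authors extracted exosomal and free circulating RNA from 1 mL of plasma, sequenced small RNA, trimmed the reads (submitters' notes: cutadapt 5.0, Trimmomatic 0.39, FastQC 0.12.1), mapped them to a genome rebuilt for Japanese Black cattle and quantified them with miRDeep2. The authors deposited expected counts per miRNA, not whole where reads were shared, and CPM values, made in edgeR 4.0.16. The CPM table closes with a row of totals, which was dropped. Sequence lengths are in nucleotides per the file headers. In 4 FC libraries at 25 and 30 months counts stood in other rows than the CPM values and were recomputed from these (tolerance 0.001 of the value or 0.02 counts); no library at 20 months was touched.

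For the test, counts of the 6 libraries were rounded, miRNAs were kept at CPM > 5 in 3 libraries or more, and a quasi-likelihood model with TMM scaling and the plasma sample as a block was run in edgeR 4.0.16 (R 4.3.3; limma 3.58.1 and DESeq2 1.42.0 for alternatives). Replicate numbers mark the same steer per the study's sample list. Deviations from the group means correlated at 0.33, 0.40 and 0.22 between same-numbered EX and FC libraries, and at −0.29 to −0.05 between the others. No library was a copy of another. Age differences used 12 libraries and an interaction term. Shares were compared by an exact two-sided sign-flip test. Alternatives were other scalings, filters, tests, a thinned FC and each replicate left out; exchanging the 3 rows of *bta-miR-194*, *bta-miR-194b* and *bta-miR-181b*, and keeping the deposited rows, were added after seeing the data. The fit was tested on simulated counts. Named are the DE-miRNAs (at most 12 in each direction, same way in all pairs), the 10 most abundant of each fraction, and members of fixed lists (of lists over 12, the highest and lowest); the other miRNAs past the FDR, *candidate-miR-3* and the sharers of the *bta-miR-106b* seed were named after their values were seen. The fraction contrast, lists and members were chosen with earlier results of these data known. Python 3.11.15, numpy 2.4.6, pandas 2.3.3 and matplotlib 3.10.9 made the tables and figures. Reference gene tables were not used here.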

Additional observations from a re-analysis of the deposited data

Results flagged for a closer look

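For 15 of the miRNAs named here, every plasma sample showed one direction between EX and FC (in CPM) at 20 months and every one the opposite direction at another age. By edgeR with the plasma block, none of these differences passed the interaction test at an FDR under 0.05 (other settings called up to 3 at 25 months and up to 52 at 30 months over all miRNAs), and the change of direction itself was not tested. With 3 pairs at each age, some such patterns are found by chance. The share of all kept miRNAs with such a pattern was not counted. Whether 15 is many or few can thus not be told, and the 15 are a description only. The values below are interaction estimates, the log2 fold change (EX minus FC) at the later age minus that at 20 months. They come from the TMM-scaled fit, in which a side can differ from that in CPM.

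In CPM, higher in FC at 20 months and in EX at 30 months were *bta-miR-1246* (1.63), *bta-let-7c* (1.28), *bta-miR-130b* (1.06), *bta-miR-130a* (1.03), *bta-let-7f* (0.97), *bta-miR-122* (0.56), *bta-miR-199a-3p* (0.21) and *bta-miR-155* (0.0697). The fitted log2 fold changes at 30 months were −0.17 for *bta-miR-199a-3p* and −0.006 for *bta-miR-155*, so neither changed side in the fit at that age. Between 20 and 25 months, *bta-miR-155* (0.55) and *bta-miR-17-3p* (2.01) went from the FC side to the EX side. The mean of *bta-miR-1246* went from 1356 CPM in EX and 3671 CPM in FC at 20 months to 4636 and 3244 CPM at 30 months. That of *bta-miR-130a* went from 275 and 427 CPM to 1142 and 672 CPM.

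In CPM, higher in EX at 20 months and in FC at 25 months were *bta-miR-487b* (−4.31), *bta-miR-181c* (−2.30), *bta-miR-375* (−0.45), *bta-miR-19a* (−0.40), *bta-miR-23b-3p* (−0.35) and *bta-miR-221* (−0.25). The fitted log2 fold change of *bta-miR-221* at 25 months was 0.06, so it stayed on the EX side in the fit. *bta-miR-19a* was also higher in FC at 30 months (−1.06). The levels of *bta-miR-487b* and *bta-miR-181c* at 20 months were at most 21.2 and 30.2 CPM.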

How the results depend on the processing

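The signs of the 11 DE-miRNAs were kept in every alternative in which they were tested. Their number became 1 with no replicate block (the pairing left out), 6 with DESeq2 size factors, 19 with DESeq2, and 9, 2 and 0 without replicates 1, 2 and 3, where fewer samples remained. The 34 miRNAs at FDR under 0.05 became 1 with no replicate block, 72 with DESeq2, and 30, 2 and 0 without replicates 1, 2 and 3. With the 3 rows exchanged there were 14 and 42, and the 11 and 34 were among them. The other counts were within 1.5 times. The interaction with age, 0 in edgeR, was 3 (DESeq2) and 0 to 2 (each replicate left out) at 25 months. At 30 months it was 19 (no replicate block), 52 (DESeq2), 26 (counts in their deposited rows) and 0 to 2 (each replicate left out). In the deposited rows, the counts of 77 to 90 miRNAs per FC library at 30 months do not match their CPM values, so the 26 are not read as calls. The cause of these shifts was not tested. The gap in detected miRNAs, −224, was −151 with FC thinned (both fractions in whole counts); no other per-library summary moved by more than the spread between pairs. EX depth limits what can be seen of miRNAs under about 1.48 CPM.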
